A study of Mus musculus with 5 samples.

Results

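The 10 genes described here encode the contractile apparatus that smooth muscle and mammary myoepithelial cells share, together with the hormone receptor and the transcription factor that mark the myoepithelial layer. They were chosen by name, 1 probe set each, out of 19938 genes measured on whole-transcript arrays: Acta2, Actg2, Lmod1, Cnn1, Tagln, Myh11, Myl9, Mylk, Oxtr and Trp63. RNA came from whole mammary gland of female mice of strain FvB/N, aged 8 weeks. Control glands came from 2 mice carrying the MMTV-rtTA transgene, and the other glands from 3 mice carrying rtTA together with a cyclin D1 (CCND1) transgene, so that rtTA was present in every animal. The reverse tetracycline transactivator rtTA switches on a responder gene in the presence of doxycycline, and the mouse mammary tumour virus promoter that drives it is active in mammary epithelium. The labels give 7 days of doxycycline, worded for mice with a KE mutant of CCND1, and name no treatment for the controls. The design text calls the mice separate animals.

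Myoepithelial cells form the basal layer of mammary ducts and alveoli, and they contract to eject milk when oxytocin binds its receptor. The receptor raises cell calcium through a G protein and phospholipase C, calcium with calmodulin activates myosin light chain kinase, and phosphorylated myosin then pulls on smooth muscle actin. Most genes of this apparatus are targets of serum response factor, which binds CArG boxes, and vascular smooth muscle and pericytes use them too. In RNA of a whole gland, fewer cells of a type and less RNA per cell cannot be told apart, nor can myoepithelial and vascular sources of one transcript.

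The 5 arrays differed in spread. The SD over all genes was 0.735 in control 1, 0.926 in control 2 and 1.20 to 1.38 in the cyclin D1 arrays. Both controls had fewer genes above a log2 value of 5 (305 and 712) than the cyclin D1 arrays (1597 to 2120). Differences are therefore given both as deposited and after the 5 arrays were quantile-normalized again, called renormalized below. Ccnd1 measured 4.04 and 3.49 in control glands and 4.63, 4.92 and 4.0 in cyclin D1 glands, so the groups overlapped (difference 0.75, limma adjusted p = 0.218). Renormalized, control 1 was the highest of the 5 arrays, at 5.06, and the difference turned to -0.14 (adjusted p = 0.882). The sources do not say whether its probe set reads the transgene. On all 5 arrays, 2 of 10 luminal and 6 of 8 adipocyte markers measured were above the 95th percentile of 1015 olfactory receptor genes. Over all genes the share was 13.8%. Among these markers were the luminal keratin genes Krt8 and Krt18 and the adipocyte genes Adipoq and Fabp4. That percentile, 2.76 to 3.46 depending on the array, serves here as a rough upper limit of signal from genes not used in the gland.

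Of the 10 genes, 1 rose and 0 fell in cyclin D1 glands at an adjusted p under 0.05, where 5.38% of all genes rose and 0.687% fell. Acta2 was the gene that rose, 5.57-fold. The other 9 did not pass. At an unadjusted limma p under 0.05 there were 3 higher (Acta2, Myh11 and Trp63) and 0 lower, where 16.2% of all genes were higher and 10.1% lower. The difference was positive in 7 and negative in 3, against 44.3% positive among all genes. The median log2 difference was 0.43 against -0.05 for all genes. The 3 cyclin D1 values lay above both controls in 4 of the 10 (Acta2, Myh11, Cnn1 and Trp63), against 22.4% of all genes, and below both controls in 0, against 22.6%. That share depended on expression: among genes as bright as Acta2 and Myh11 it was 82.2%, as Cnn1 58.6% and as Trp63 33.1%. After renormalization 0 of the 10 passed in limma, where 0.256% of all genes rose. An unadjusted limma p under 0.05 was found there for 1 of the 10 (Acta2). In either direction it was found for 3736 of all 19938 genes. On that scale 7 of the 10 were positive (47.8% of all genes), with a median of 0.23.

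**Figure D1:**
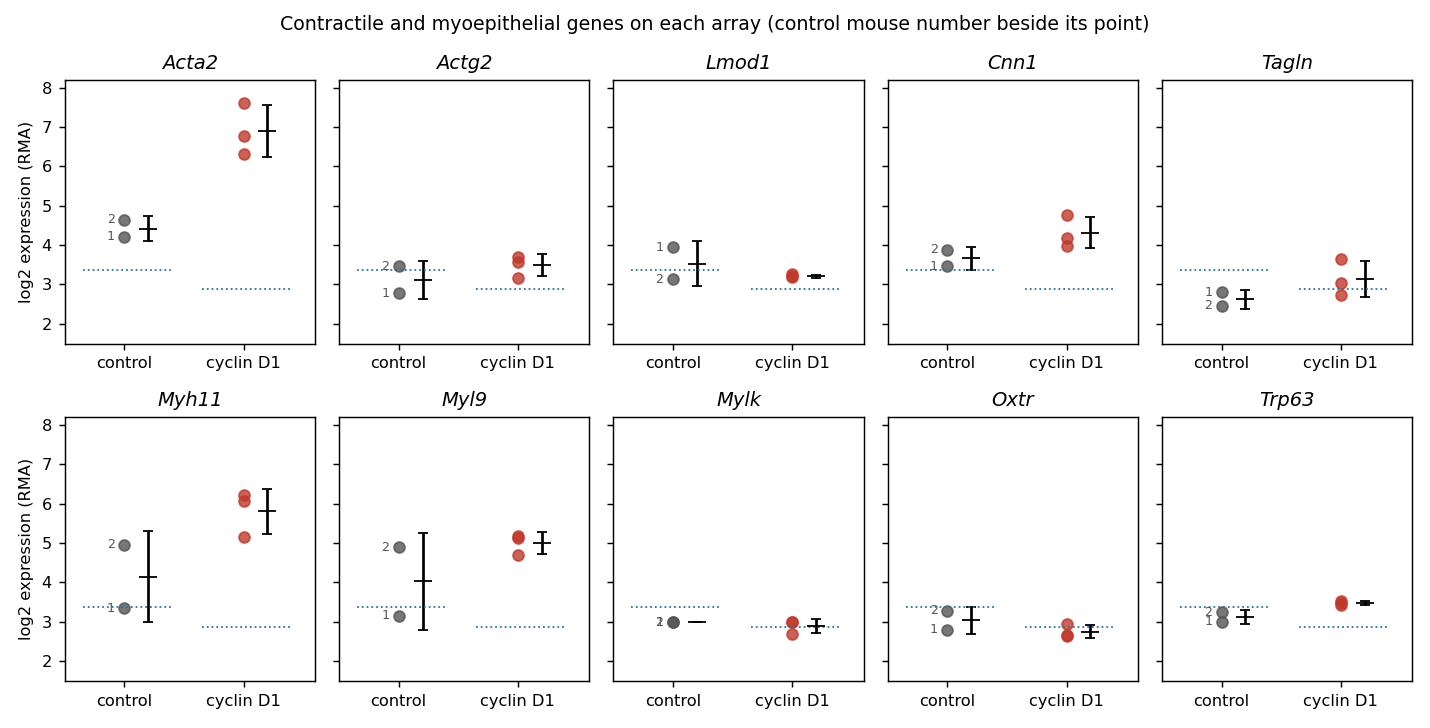
Log2 expression of each gene on each array, controls in grey with the mouse number and cyclin D1 glands in red; black marks give the mean and SD (n = 2 and n = 3) and dotted lines the 95th percentile of olfactory receptor genes, averaged over the arrays of a group. Acta2 is separated between the groups by the widest margin, whereas the controls of Myh11 and Myl9 lie 1.62 and 1.74 apart.

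Acta2 (probe set 10467124) encodes smooth muscle alpha-actin, the thin filament protein most used to stain myoepithelium. Its log2 expression was 4.21 and 4.64 in controls 1 and 2, and 6.77, 7.61 and 6.32 in cyclin D1 replicates 1, 2 and 3. Every cyclin D1 gland was above both controls, by 1.68 at the narrowest gap. The means were 4.42 ± 0.31 (SD, n = 2) and 6.90 ± 0.65 (SD, n = 3), a log2 difference of 2.48 (95% CI 1.47 to 3.49, limma adjusted p = 0.0349). Acta2 belonged to the tenth of genes with the highest mean expression, decile 10, in which 36.0% of genes rose and the median log2 difference was 1.59. In that decile 15.7% of genes had a larger difference than Acta2. Renormalized values were 5.38 and 5.23 in the controls and 6.04, 6.72 and 5.90 in cyclin D1 glands, so the groups were still apart, but the difference was 0.92 (95% CI 0.22 to 1.61, limma adjusted p = 0.177). The call was lost when any 1 of the 5 arrays was left out, with differences of 2.12 to 2.77. The adjusted p was 0.158 without control 1, 0.0795 without control 2, and 0.140, 0.0683 and 0.0566 without cyclin D1 replicates 1, 2 and 3.

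The promoter of Acta2 is shown because it is the gene that rose and because actin genes are classical targets of serum response factor. RefSeq promoter sequences (GRCm38.p6) were matched for 6 of the 10 genes, Acta2, Mylk, Cnn1, Oxtr, Myl9 and Lmod1, and the 250 bases before each gene's start were searched on both strands. The searches were for CArG boxes, for CArG boxes with 1 of the 6 core bases changed to C or G, and for the MCAT element CATTCC bound by TEAD factors. An exact and a changed CArG box cannot be the same match. An exact CArG box was found in Myl9 alone of the 6, and in 1.47% of 32851 promoters of the same length. The changed form was found in Acta2 and Myl9, and in 7.24% of promoters. The MCAT element was found in Acta2, Mylk and Lmod1, and in 12.6% of promoters. Cnn1 and Oxtr held none of these letters in this window. In the 2 sequences, both 5′ to 3′ along the gene, capitals mark these matches. Acta2 lies on the minus strand, at chr19:34255374-34255623, and Myl9 on the plus strand, at chr2:156775214-156775463.

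Acta2: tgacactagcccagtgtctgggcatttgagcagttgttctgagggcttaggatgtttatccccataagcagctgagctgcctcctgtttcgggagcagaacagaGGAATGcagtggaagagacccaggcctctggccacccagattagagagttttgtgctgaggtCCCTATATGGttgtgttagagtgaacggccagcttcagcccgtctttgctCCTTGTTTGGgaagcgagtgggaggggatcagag
Myl9: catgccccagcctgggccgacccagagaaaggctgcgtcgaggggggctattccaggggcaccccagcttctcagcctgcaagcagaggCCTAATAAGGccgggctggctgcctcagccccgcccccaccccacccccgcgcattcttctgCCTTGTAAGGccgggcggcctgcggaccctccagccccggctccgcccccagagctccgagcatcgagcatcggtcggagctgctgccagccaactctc

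In Acta2 the capitals are, in order, the MCAT element (GGAATG, the reverse strand of CATTCC, 146 to 141 bases before the start) and the changed boxes CCCTATATGG (84 to 75 bases) and CCTTGTTTGG (34 to 25 bases). In Myl9 they are the exact box CCTAATAAGG (161 to 152 bases) and the changed box CCTTGTAAGG (99 to 90 bases). Of these 2 genes with CArG matches, Acta2 rose and Myl9 did not pass the test. Whether the matches bear on expression was not tested.

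Actg2 (probe set 10545707) encodes smooth muscle gamma-actin, the close relative of Acta2 that predominates in visceral muscle. Its control values were 2.78 and 3.46, and its cyclin D1 values 3.17, 3.58 and 3.70. Control 2 lay within the cyclin D1 values, so the groups overlapped. The difference of 0.37 (95% CI -0.32 to 1.05, limma adjusted p = 0.424) did not pass, and it was 0.27 after renormalization. Because the proteins are near relatives, probes of one gene can read the other, which was not tested.

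Lmod1, Cnn1 and Tagln encode actin-binding proteins of smooth muscle. Lmod1 (leiomodin 1, probe set 10350123), which nucleates actin filaments, was at 3.94 and 3.13 in the controls against 3.26, 3.21 and 3.18 in cyclin D1 glands. Control 1 was above the closely grouped cyclin D1 values, which spanned 0.08, and control 2 just below them. The difference was -0.32 (95% CI -0.97 to 0.32, limma adjusted p = 0.454), or -0.81 renormalized (95% CI -2.06 to 0.43), and it turned on which control was kept. Without control 2 it was -0.73 and passed (adjusted p = 0.0390), in a fit in which 5.33% of all genes fell, and without control 1 it was 0.08 (adjusted p = 0.638). Renormalized, these values were -1.80 (adjusted p = 0.00331) and 0.06 (adjusted p = 0.812).

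Cnn1 (calponin 1, probe set 10583809), which dampens myosin ATPase activity, was at 3.46 and 3.88 in the controls against 3.99, 4.77 and 4.19 in cyclin D1 glands. The groups did not overlap, but the lowest cyclin D1 value was only 0.12 above control 2. The difference of 0.65 (95% CI -0.05 to 1.36, limma adjusted p = 0.215) did not pass and matched the median of its expression decile, 0.67. Renormalized, it was 0.06, and under cyclic loess normalization it was -0.04. Tagln (transgelin or SM22-alpha, probe set 10593123), which bundles actin, was at 2.80 and 2.46 in the controls against 2.73, 3.64 and 3.04 in cyclin D1 glands. Cyclin D1 replicate 1 fell between the controls. Its difference of 0.50 (95% CI -0.25 to 1.25, limma adjusted p = 0.339) was 0.51 after renormalization, and 5.62% of genes in its decile had a larger one. The signal of Tagln exceeded the 95th percentile of olfactory receptor genes on 1 array only, cyclin D1 replicate 2.

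The myosin genes split by control mouse. Myh11 (probe set 10437885), the heavy chain of smooth muscle myosin, was at 3.34 in control 1 and 4.96 in control 2, and at 6.21, 6.06 and 5.16 in cyclin D1 glands. The groups did not overlap, although control 2 came within 0.20 of cyclin D1 replicate 3. The difference of 1.66 (95% CI 0.24 to 3.08, limma adjusted p = 0.142) did not pass and was close to the median of decile 10. Myl9 (probe set 10477920), the regulatory light chain whose phosphorylation starts contraction, was at 3.16 in control 1 and 4.89 in control 2, and at 5.14, 5.17 and 4.69 in cyclin D1 glands. Control 2 stood among the cyclin D1 values and control 1 far below them. The difference of 0.97 (95% CI -0.33 to 2.28, limma adjusted p = 0.295) did not pass and was below the median of its decile.

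Which control was kept decided the sign of both myosin genes on the renormalized scale. Against control 2 alone Myh11 differed by -0.39 (limma adjusted p = 0.479) and Myl9 by -1.04 (adjusted p = 0.0334). Against control 1 alone they differed by 1.79 (adjusted p = 0.0138) and 1.43 (adjusted p = 0.00519). As deposited, Myl9 differed by 0.11 against control 2 alone and by 1.84 against control 1 alone, the latter passing (adjusted p = 0.0437), and Myh11 by 0.85 and 2.47, neither passing. Against control 2 alone, 4.48% of all genes were lower on the renormalized scale, and against control 1 alone 11.1% were higher and 15.8% lower, with 6.85% higher as deposited. In these fits the lone control is assumed to vary like the other group.

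Mylk (probe set 10435345), the kinase that phosphorylates the light chain, was listed at the same value of 2.99 on both controls and on cyclin D1 replicates 2 and 3, and at 2.68 on replicate 1. Only 0.707% of genes had exactly 4 of 5 arrays at 1 value, and why Mylk did was not tested. Its difference of -0.11 (95% CI -0.50 to 0.29, limma adjusted p = 0.691; -0.09 renormalized) has to be read beside that repeated value.

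**Figure D2:**
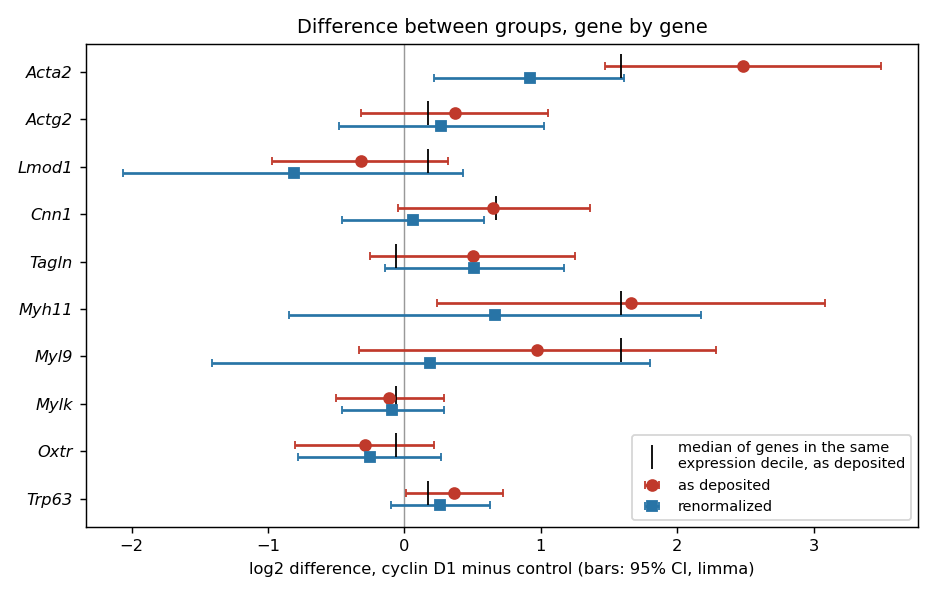
Log2 difference between cyclin D1 and control glands for each gene, with its 95% confidence interval from limma, as deposited (red circles) and renormalized (blue squares); black ticks give the median difference of all genes in the same expression decile. Acta2 is the gene whose red interval reaches farthest from 0, and its renormalized difference is 0.92.

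Oxtr (probe set 10546829), the oxytocin receptor, was at 2.80 and 3.28 in the controls against 2.66, 2.65 and 2.94 in cyclin D1 glands. Control 1 lay within the cyclin D1 range, so the groups overlapped, with a difference of -0.29 (95% CI -0.80 to 0.22, limma adjusted p = 0.400; -0.25 renormalized). It exceeded the olfactory receptor percentile on 1 array only. Trp63 (probe set 10434815), whose product p63 is the nuclear factor required for the basal epithelial lineage, was at 3.00 and 3.24 in the controls against 3.52, 3.49 and 3.43 in cyclin D1 glands. All cyclin D1 glands were above both controls and within 0.09 of each other. The difference was small, 0.36 (95% CI 0.01 to 0.72, limma adjusted p = 0.181), and did not pass. It was 0.26 after renormalization, with the groups still apart, as they were in 20.1% of all genes in that direction.

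Signal strength set limits on these results. On all 5 arrays 2 of the 10 genes, Acta2 and Cnn1, lay above the olfactory receptor percentile, against 13.8% of all genes. Myh11, Myl9, Lmod1 and Actg2 did so on 4 arrays, Trp63 on 3, and Mylk, Tagln and Oxtr on 1. By mean expression, Acta2, Myh11 and Myl9 are in decile 10, Cnn1 in decile 9 (median log2 difference of that decile 0.67, with 13.4% rising), Lmod1, Trp63 and Actg2 in decile 8 (0.17, with 3.06%), and Mylk, Tagln and Oxtr in decile 6 (-0.06, with 0.301%). Tagln, at 0.50, differed by more than any of the 3 genes in decile 8.

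**Figure D3:**
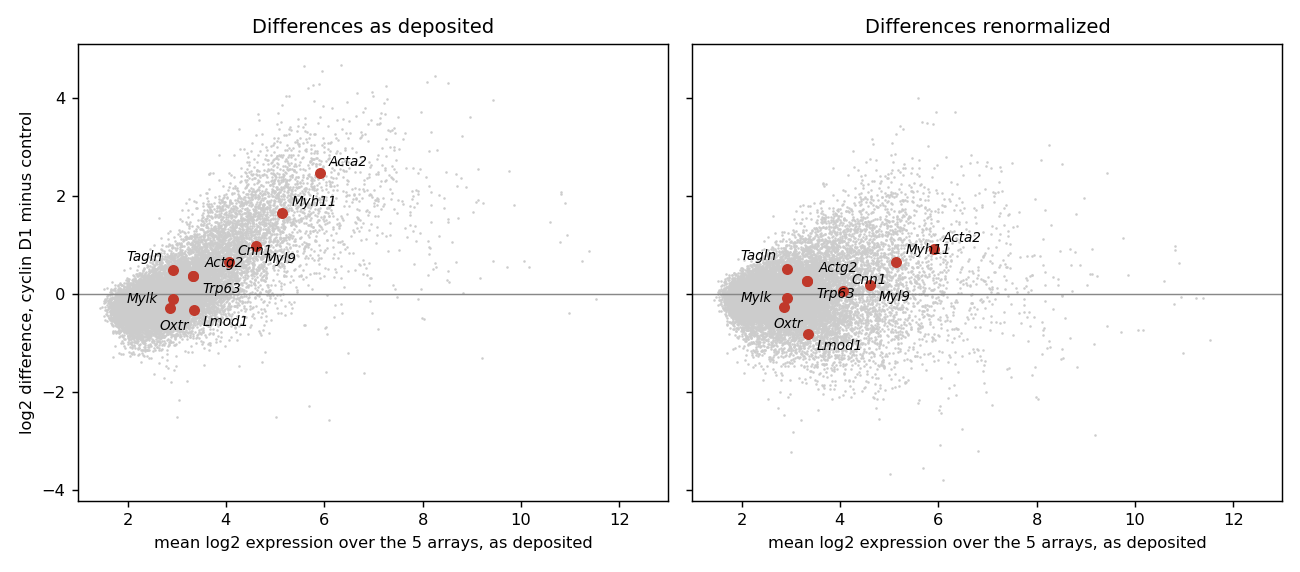
Log2 difference between cyclin D1 and control glands (vertical) against mean log2 expression over the 5 arrays (horizontal) for all 19938 genes in grey, as deposited on the left and renormalized on the right, with the 10 genes in red. As deposited the cloud rises with expression and Acta2, Myh11 and Myl9 lie within its rising arm; after renormalization they differ by 0.92, 0.66 and 0.19.

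The wider contractile machinery was read from the same fit. Of 31 measured genes of the smooth muscle cytoskeleton and its regulators, 2 rose and 0 fell, with a median log2 difference of 0.48. The 3 cyclin D1 values lay above both controls in 15 and below both in 2. Unadjusted, 13 were higher and 0 lower. The shares over all genes given above apply here too: 5.38% rose, 22.4% lay above both controls, 22.6% below both, and 16.2% were higher unadjusted. In decile 10, which held 10 of the 31, 76.6% of genes were higher unadjusted and 82.2% lay above both controls. Ppp1cb, a catalytic subunit of myosin phosphatase, differed by 2.20 (limma adjusted p = 0.0165), and Rhoa, a GTPase that restrains that phosphatase, by 2.14 (adjusted p = 0.0318). Differences of 1.91 for the essential light chain gene Myl6 (adjusted p = 0.0656) and 3.17 for Lpp, a focal adhesion protein gene (adjusted p = 0.0701), did not pass. Ppp1cb, Rhoa, Myl6 and Lpp are used by many cell types and are in decile 10. Rhoa, Myl6 and Lpp had 2, 6 and 3 probe sets, and only the brightest on average is given. After renormalization 0 of the 31 passed and the median was 0.07. In either direction, 6 of the 31 then had an unadjusted limma p under 0.05, against 3736 of all 19938 genes. Ppp1cb was at 0.59, Rhoa at 0.31, Myl6 at 0.18 and Lpp at 1.66 on that scale.

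Among 11 measured transcription factors and cofactors of the smooth muscle programme 1 rose and 0 fell, against 5.38% and 0.687% of all genes. Unadjusted, 2 were higher and 0 lower (16.2% and 10.1% of all genes), and the median difference was 0.01. Tead1, which binds MCAT elements, averaged 3.56 ± 0.37 (SD, n = 2) without the cyclin D1 transgene and 4.87 ± 0.13 (SD, n = 3) with it. Its difference of 1.32 (limma adjusted p = 0.0317) was 0.70 after renormalization and no longer passed (adjusted p = 0.199). Tead1 is in decile 9, in which 13.4% of genes rose and the median log2 difference was 0.67. Serum response factor itself (Srf) differed by 0.32 (adjusted p = 0.366) and its muscle cofactor Myocd by -0.04 (adjusted p = 0.837). The cofactor gene Mrtfb differed by 0.88 (adjusted p = 0.213), Elk4 by 0.62 (adjusted p = 0.155) and Hey2 by -0.50 (adjusted p = 0.316). Renormalized, Srf, Mrtfb, Elk4 and Hey2 were at 0.12, 0.13, 0.40 and -0.42, and Myocd turned to 0.17.

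Of 19 measured genes between the oxytocin receptor and the calcium signal, 2 rose and 0 fell (5.38% and 0.687% of all genes). Unadjusted, 7 were higher and 0 lower (16.2% and 10.1% of all genes), and the median difference was 0.12. Decile 10, in which 36.0% of genes rose, held 3 of the 19, among them Atp2a2 and Gnaq. Atp2a2, the calcium pump of the endoplasmic reticulum, differed by 2.61 (limma adjusted p = 0.0220) and Gnaq, the G protein subunit that couples the receptor to phospholipase C, by 1.73 (adjusted p = 0.0273). The phospholipase gene Plcb4 differed by 0.69 (adjusted p = 0.0508) and the calcium release channel gene Itpr2 by 0.90 (adjusted p = 0.0597), without passing. Renormalized, Atp2a2 differed by 1.56, Gnaq by 0.88, Plcb4 by 0.14 and Itpr2 by 0.38, and 0 of the 19 passed. In either direction, 4 of the 19 then had an unadjusted limma p under 0.05, against 3736 of all 19938 genes.

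Basal epithelial markers other than the contractile genes did not move one way. Of 14 measured, 2 rose and 0 fell, where 5.38% of all genes rose and 0.687% fell. Unadjusted, 3 were higher and 3 lower, against 16.2% and 10.1% of all genes. The difference was positive in 6, against 44.3% of all genes, with a median of -0.05. The genes that rose were Mme, the surface peptidase CD10, by 1.79 (limma adjusted p = 0.0178), and Itga6, the integrin alpha-6 chain, by 2.21 (adjusted p = 0.0305). Both are in decile 10, in which 36.0% of genes rose and the median log2 difference was 1.59. The basal keratin gene Krt14 was at 3.27 and 3.08 in the controls against 3.05, 2.83 and 3.37 in cyclin D1 glands, and Krt5 at 2.87 and 2.92 against 3.48, 3.74 and 3.10. Krt14 overlapped between the groups, whereas Krt5 was higher in every cyclin D1 gland without passing (adjusted p = 0.190); each exceeded the olfactory receptor percentile on 3 arrays. The nerve growth factor receptor gene Ngfr differed by -0.76 (adjusted p = 0.106) and the desmosomal gene Dsc3 by -0.78 (adjusted p = 0.123). On the renormalized scale 0 of the 14 passed. In either direction, 2 of the 14 then had an unadjusted limma p under 0.05, against 3736 of all 19938 genes. The renormalized differences were 0.61 for Mme, 0.50 for Itga6, 0.49 for Krt5 and -0.18 for Krt14. Dsc3 was at -0.68 and Ngfr at -1.30 (limma adjusted p = 0.0558).

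Markers of other cells were measured beside these. Of 9 pericyte and vascular muscle markers 0 rose and 0 fell in the limma test, with 1 at an unadjusted p under 0.05 (Higd1b, which was lower). Their mean log2 level was 3.02 and 3.39 in the controls and 3.15 to 3.37 in cyclin D1 glands, with a median difference of 0.00. Rgs5, the pericyte marker that lay above the olfactory receptor percentile on every array, was at 4.51 and 5.84 in the controls and 5.64 to 6.46 in cyclin D1 glands, and its difference was 0.77 as deposited and -0.77 after renormalization. Of 12 skeletal muscle markers 0 passed, and 0 had an unadjusted p under 0.05, with a median of -0.20 and mean levels of 2.78 and 2.96 in the controls against 2.60 to 2.79. Of 10 luminal epithelial markers 1 rose and 0 fell, against 5.38% and 0.687% of all genes. The gene that rose was Epcam, an epithelial adhesion molecule, by 2.49 (limma adjusted p = 0.0184). Epcam is in decile 10, in which 36.0% of genes rose. After renormalization it differed by 1.54 (limma adjusted p = 0.0630), and 0 of the 10 luminal markers passed. Unadjusted, 4 of the 10 were higher and 0 lower, against 16.2% and 10.1% of all genes. Of the luminal differences 9 were positive (44.3% of all genes), with a median of 0.51, and 3 of the 10 genes were in decile 10. The mean luminal level was 3.17 and 3.26 in the controls against 3.79 to 4.01 in cyclin D1 glands. Fibroblast markers had 0 of 10 that passed, with 1 at an unadjusted p under 0.05 (Pi16, which was lower), and a median difference of 0.38. The mean fibroblast level was 3.69 in control 1, 4.87 in control 2 and 4.28 to 4.87 in cyclin D1 glands. Control 1 was thus the lowest, as for Myh11 and Myl9. Mean levels were also lower in control 1 than in control 2 for pericyte (3.02 and 3.39), endothelial (2.90 and 3.13) and leukocyte markers (2.91 and 3.21). Adipocyte (5.06 and 5.13) and luminal markers differed less in that direction, and skeletal muscle markers went the other way (2.96 and 2.78). None of the 8 endothelial, 8 adipocyte or 7 leukocyte markers measured passed in limma, with 0, 0 and 1 (Cd14, which was higher) at an unadjusted p under 0.05 and median differences of 0.26, 0.11 and 0.09. Renormalized, these medians were 0.16, -0.87 and -0.08, with 1 of the 8 adipocyte markers positive, and those of the pericyte, skeletal muscle, luminal and fibroblast markers were -0.07, -0.19, 0.31 and -0.30. Only 1 of all these markers, the luminal gene Prom1, never exceeded the average olfactory receptor signal of its array. The part of these cell types in the values of the 10 genes was not tested.

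**Figure D4:**
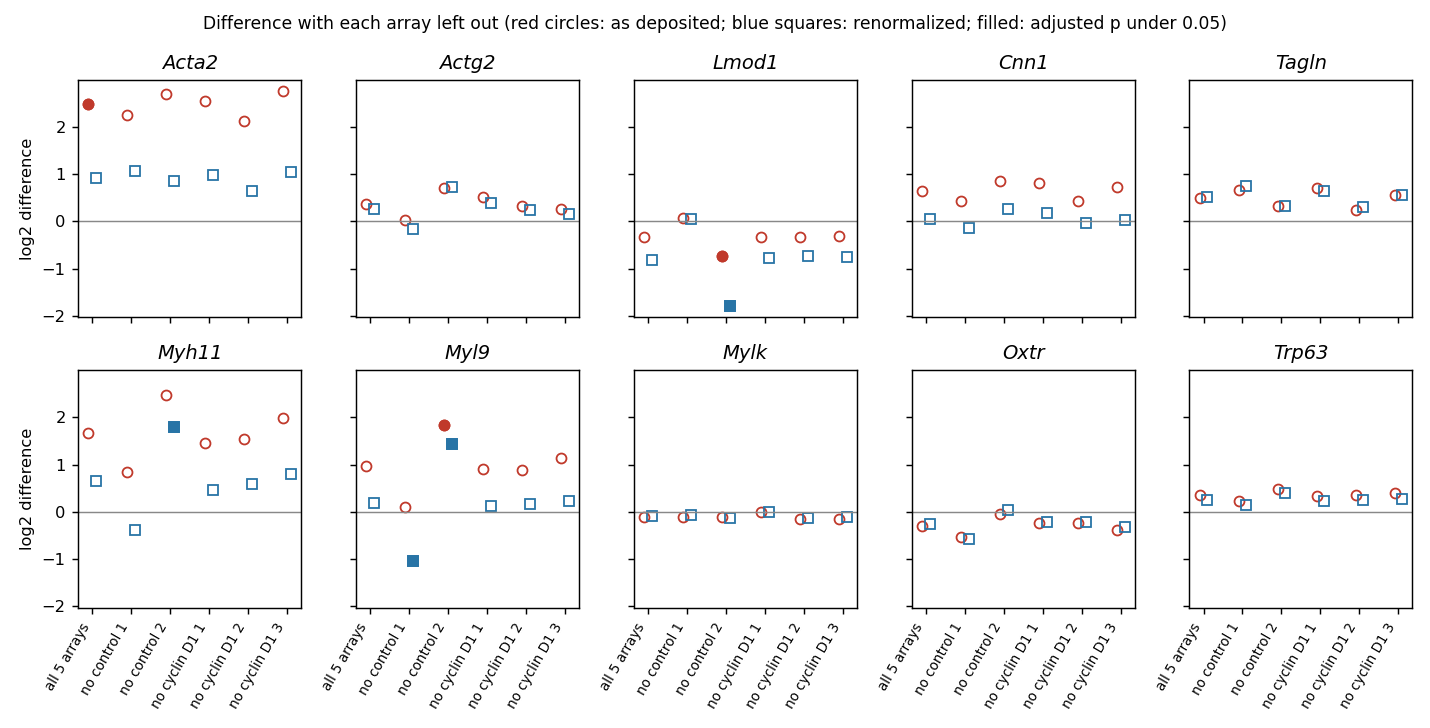
Log2 difference of each gene with all 5 arrays and with each array left out, as deposited (red circles) and renormalized (blue squares); filled symbols passed at an adjusted p under 0.05. Acta2 keeps a positive difference in every fit but is filled only as deposited with all 5 arrays. On the renormalized scale Myl9 changes sign with the control that is left out.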

How the data were processed

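Mammary gland RNA of 5 mice was measured on 1 array each. The authors deposited log2 expression per probe set; the submitters' processing notes name RMA and Affymetrix Expression Console 1.1, and the sources used here give neither the background setting nor which arrays were normalized together. The values, 0.83 to 12.9, set the log base. No raw intensities or detection calls were used. The small number of arrays limits the precision. Of 35556 probe sets, 21789 had 1 gene symbol. The brightest on average was kept per symbol, giving 19938 genes, of which 999 had over 1 probe set.

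Groups were compared over all genes by limma (version 3.58.1, R 4.3.3, lmFit, then eBayes, two-sided). The fit had 3 residual and 2.39 prior degrees of freedom, and the Benjamini-Hochberg threshold was 0.05. The same fit was run on simulated data in which the arrays did not differ in spread. That simulation cannot show how the test behaves with the unequal spread of these arrays. The 10 genes, the lists and the rough background from olfactory receptor genes were chosen with earlier results of these data known. Named genes were the 10 genes, the 4 members of each other list with the smallest p, and defining markers, except that lists of other cell types are given mainly by their counts; Srf, Myocd, Krt5, Krt14, Rgs5, Higd1b, Pi16, Cd14 and Prom1 were named after their values were seen. Alternatives were other normalizations, probe-set averaging, a filter on dim genes, priors, array weights, a replicate block and left-out arrays.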

Additional observations from a re-analysis of the deposited data

How the results depend on the processing

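Of 19 alternatives, 5 kept the call of Acta2 (median centring, mean of the probe sets, only genes above the median gene, a robust prior and the replicate block, at limma adjusted p-values of 0.0234 to 0.0369), and in all 19 its difference was positive. No member was called under quantile normalization again (median of the 10 genes 0.23), cyclic loess (0.07), an intensity trend or array weights, in each of which 0 of the 10 rose. Under these 4 settings in that order 51, 5, 622 and 263 genes rose over the whole table, and 0, 0, 0 and 0 of the contractile list and 0, 0, 1 and 0 of the basal list; 21, 1 and 4 genes fell with quantile normalization, cyclic loess and weights. With the filter 4 contractile genes rose, where 1457 of the 9969 genes kept rose and 56 fell. With the replicate block 10 genes fell and Acta2 differed by 2.77; the deviations of same-numbered mice correlated at -0.03 and 0.13, the numbers are no pairing by design, and the block moved no other member's call. With 1 array left out, on either scale, 0 to 2221 genes rose and 0 to 3154 fell; 0 to 2 of the 10 genes rose and 0 to 1 fell, their median ran from -0.10 to 0.61, and 0 to 9 contractile genes rose and 0 to 4 fell, against 0 to 2 and 0 to 4 of the basal list. On the deposited scale no gene of the whole table passed without control 1 (4973 at an unadjusted p under 0.05), cyclin D1 replicate 1 (3568) or cyclin D1 replicate 2 (3491), so every call made there with all 5 arrays was lost; renormalized, 555 genes rose and 894 fell without control 1, Myl9 among the latter. Over both scales with 1 array left out, 6 genes changed sign: Cnn1 ranged from -0.14 to 0.86, Myl9 from -1.04 to 1.84, Myh11 from -0.39 to 2.47, Actg2 from -0.17 to 0.73, Lmod1 from -1.80 to 0.08 and Oxtr from -0.58 to 0.03. Leaving out a control set both ends of each range. Under cyclic loess Cnn1 was at -0.04 and Myl9 at -0.16. The causes were not tested. Single intensities and detection calls were not used, so a dim gene cannot be told from an absent one.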
